A study of Homo sapiens with 12 samples.

Results

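The genes described here are 34 human genes of glucose uptake, glycolysis, lactate exchange and the pyruvate dehydrogenase switch. They were taken by symbol from a list of pathway members, which was chosen with earlier results of these data known. All 34 were among the 25369 genes of the count tables. All 34 also passed the filter on low counts, which left 16625 genes for testing. Transcripts were measured by poly(A) RNA-seq in U2OS cells, a human osteosarcoma line, in 4 stable Tet-On lines with 3 biological replicates each. The pTRE line carried the empty vector. The WT line carried inducible HA-tagged wild-type E2F1, the R109K line E2F1 with its asymmetrically methylated arginine (the PRMT1 site) changed to lysine, and the KK line E2F1 with both symmetrically methylated arginines (the PRMT5 sites) changed to lysine. All 4 lines, pTRE included, were grown under G418 and hygromycin B selection and received doxycycline at 1 µg/ml for 24 h, and all kept their own E2F1 gene. Each construct was therefore represented by 1 stable line, so that a property of a line and an effect of its construct cannot be told apart.

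Glycolysis turns glucose into pyruvate in the cytosol. Glucose enters through facilitative carriers, is trapped by hexokinase, is committed at phosphofructokinase, is split by aldolase and is then oxidised and converted to pyruvate by the lower pathway. Lactate dehydrogenase interconverts pyruvate and lactate, the monocarboxylate carriers move both across the plasma membrane, and the pyruvate dehydrogenase complex sends pyruvate into mitochondrial oxidation unless its kinases switch it off. Several steps have tissue-specific isoenzymes, many of the genes are induced in low oxygen by hypoxia-inducible factors (HIF), and tumour cells such as osteosarcoma are known for releasing lactate even with oxygen present.

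In all 3 E2F1 lines the transcripts of the brain-type aldolase ALDOC, the glucose carrier SLC2A3, the muscle-type phosphofructokinase PFKM and the pyruvate dehydrogenase subunit PDHB fell with respect to the empty vector line pTRE, and the lactate carrier SLC16A1 rose. ALDOC fell furthest, with log2 fold changes of -2.08 (standard error, SE, 0.23) in WT, -2.24 (SE 0.23) in R109K and -2.66 (SE 0.24) in KK. SLC16A1 was 2.39-fold higher in WT, 2.28-fold higher in R109K and 2.33-fold higher in KK. The ubiquitous aldolase ALDOA and enolase ENO1 passed the test in none of the lines, whereas GAPDH and the pyruvate kinase gene PKM fell in WT. The calls of PDHB in R109K and of GAPDH and PKM in WT were each lost in some fits that left out a single sample. Here and below, fell and rose mean an adjusted p below 0.01 in edgeR's quasi-likelihood test with Benjamini-Hochberg adjustment over all 16625 genes, with n = 3 per line.

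With respect to pTRE, 8 members fell and 2 rose in WT, where 11.4% of all tested genes fell and 14.8% rose. In KK, 7 members fell and 2 rose, against 10.7% and 13.8% of all genes. In R109K, 4 fell and 2 rose, against 7.23% and 10.0% of all genes. As shares of the 34 members, 23.5% fell in WT, 20.6% in KK and 11.8% in R109K, and 5.88% rose in each line. By the threshold on the adjusted p alone, the share of members that fell was above the background in each line, and the share that rose below it. With a change of more than 2-fold required as well, 1 member fell in WT, 3 in KK and 1 in R109K. Of all 16625 genes, 653, 649 and 425 fell by that stricter rule in WT, KK and R109K. By that rule the share of members that fell was below the background in WT, above it in KK and close to it in R109K. In R109K, 3 to 5 members and 701 to 1620 of all genes fell when 1 sample was left out. Whether these shares differ from the background was not tested. The median log2 fold change of the members was -0.20 in WT, -0.15 in KK and -0.07 in R109K, beside medians of all tested genes between -0.01 and 0.00. An adjusted p below 0.01 together with a change of more than 2-fold was found for 2 members in WT (ALDOC, SLC16A1), 5 in KK (ALDOC, SLC2A3, PFKFB4, SLC16A1, SLC16A3) and 2 in R109K (ALDOC, SLC16A1), where 11.8%, 10.9% and 7.19% of all genes passed that rule in either direction. The 3 comparisons share the same pTRE samples. In total 13 members passed the test in at least 1 line, 5 in all 3 lines, and 21 in none. The cells were measured in bulk, so fewer cells that express a gene and less RNA per cell cannot be told apart.

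**Figure D1:**
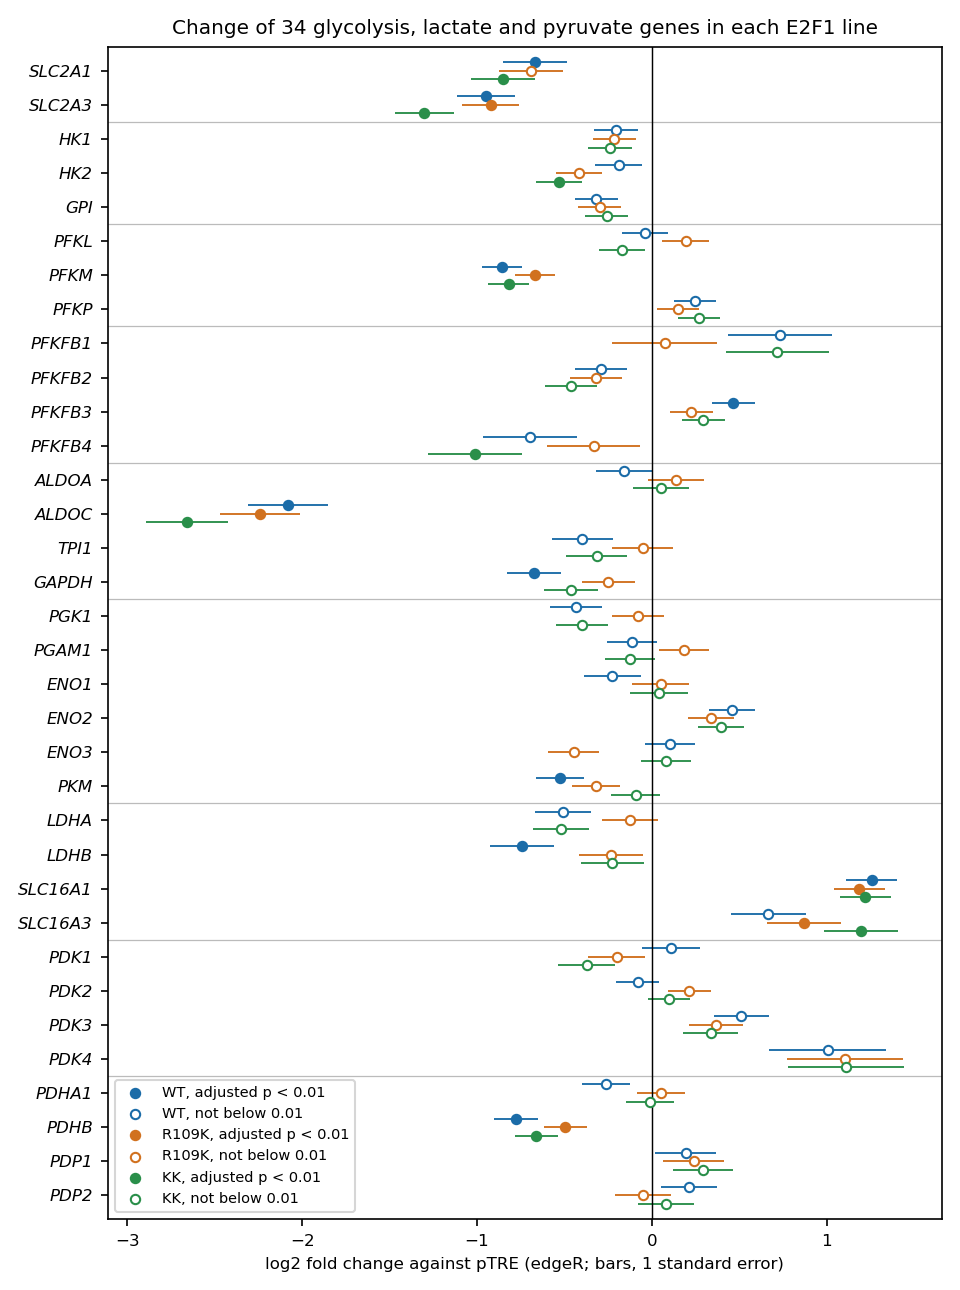
Log2 fold change against pTRE (x axis) of each of the 34 genes (y axis, grouped by role) in WT (blue), R109K (orange) and KK (green), with bars of 1 standard error. Filled points have an adjusted p below 0.01. ALDOC lies furthest to the left in all 3 lines, and SLC16A1 is the only gene filled to the right of 0 in all 3.

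The reads assigned to genes numbered from 11500537 (WT replicate 2) to 31040903 per sample. WT replicate 2 stood apart: 58.7% of its reads fell outside annotated genes, against 23.6% to 29.6% in the other 11 samples, and the members took up 1.37% of its gene reads, against 1.69% to 2.25% elsewhere. Results for WT are therefore given with and without it where this changes a call. Levels are given as CPM, the counts of a gene per 1000000 gene reads of the sample after TMM scaling. As a check of the labels, E2F1, counted without distinction between the inserted and the cells' own copy, stood at 83.0 to 101.5 CPM in pTRE, at 1469 to 2315 in WT, at 932 to 1283 in R109K and at 1112 to 1478 in KK. Of 8 mesenchymal markers, VIM, COL1A1 and SPARC were abundant, whereas COL1A2 stayed under 1 CPM in every sample. The summed level of the 8 was 6395 to 7634 CPM in pTRE and 2455 to 3666 CPM in the E2F1 lines. COL1A1 and SPARC fell in all 3 lines, VIM overlapped between the lines, and CD44 of the same list was higher (233 to 254.5 CPM in pTRE, 278 to 344 CPM in the others). The 5 epithelial markers summed to 744 to 919 CPM in pTRE and 365 to 659 CPM in the E2F1 lines, and the 3 haematopoietic markers together stayed under 1 CPM. The part of these differences in the results below was not tested.

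Expressed per length, in CPM per kilobase of the MANE Select transcript, the abundance of the members in pTRE spanned from 5243 ± 341 (SD, n = 3) for GAPDH to 0.24 ± 0.09 for PDK4. ENO1 followed GAPDH at 1828 ± 180, then PKM at 1111 ± 101, TPI1 at 901 ± 85.7, LDHB at 843 ± 60.6, LDHA at 747 ± 40.0 and ALDOA at 709 ± 93.1. TPI1 and LDHB differed by less than their spread, as did LDHA and ALDOA. Among the genes of uptake and the first steps, the levels were lower, with SLC2A1 at 82.9 ± 20.2, HK1 at 72.3 ± 5.57 and PFKL at 55.1 ± 10.0. In pTRE the genes that later fell in all lines were of middle rank (PFKM 34.9 ± 1.26, PDHB 34.3 ± 2.04, ALDOC 32.6 ± 7.90 and SLC2A3 28.8 ± 4.08 CPM per kilobase). SLC16A1 stood at 70.9 ± 1.95.

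For 4 of the 5 genes that passed the test in all 3 lines, the promoters are printed as the 250 bases upstream of the MANE Select start on the strand of the gene, from GRCh37 (hg19), the build to which the reads had been aligned. They are shown because the results against pTRE turn on these genes, of which ALDOC, PFKM and PDHB fell and SLC16A1 rose. Capitals mark ACGTG or GCGTG, the core letters of HIF response elements, and CACGTG, the E-box bound by MYC and USF proteins, on either strand (so that CACGT and CACGC in capitals are matches on the opposite strand). Every CACGTG also holds an ACGTG on each strand. The windows lie at chr17:26903914-26904163 (minus strand) for ALDOC, chr12:48512897-48513146 (plus) for PFKM, chr3:58419560-58419809 (minus) for PDHB and chr1:113498819-113499068 (minus) for SLC16A1.
ALDOC: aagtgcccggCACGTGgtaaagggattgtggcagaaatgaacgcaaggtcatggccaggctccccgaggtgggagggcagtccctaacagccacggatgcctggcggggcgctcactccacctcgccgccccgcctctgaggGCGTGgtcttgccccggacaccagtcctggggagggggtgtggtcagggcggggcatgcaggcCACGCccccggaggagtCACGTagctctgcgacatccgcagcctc
PFKM: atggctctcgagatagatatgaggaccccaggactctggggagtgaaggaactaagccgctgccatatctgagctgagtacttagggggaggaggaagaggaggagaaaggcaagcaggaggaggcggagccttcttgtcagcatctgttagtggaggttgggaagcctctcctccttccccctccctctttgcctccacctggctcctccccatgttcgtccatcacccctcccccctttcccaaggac
PDHB: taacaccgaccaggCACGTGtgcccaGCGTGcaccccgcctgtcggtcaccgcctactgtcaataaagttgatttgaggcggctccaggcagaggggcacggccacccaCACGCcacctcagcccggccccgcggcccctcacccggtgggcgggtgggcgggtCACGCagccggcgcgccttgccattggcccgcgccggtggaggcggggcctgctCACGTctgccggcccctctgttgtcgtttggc
SLC16A1: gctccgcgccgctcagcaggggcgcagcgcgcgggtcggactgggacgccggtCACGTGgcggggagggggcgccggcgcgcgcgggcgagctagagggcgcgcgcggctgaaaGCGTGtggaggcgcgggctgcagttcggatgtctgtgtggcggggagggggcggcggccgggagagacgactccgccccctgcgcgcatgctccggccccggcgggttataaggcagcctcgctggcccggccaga

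The E-box is held by 3 of the 4 windows printed: ALDOC, where it begins 240 bases upstream of the start, PDHB at 236 and SLC16A1 at 197. Each of those 3 windows also holds GCGTG, and the window of PFKM holds none of the letters searched. Over all 34 members, 17 promoters held ACGTG, 15 held GCGTG, 23 held either and 8 held CACGTG. Among the 17544 promoters of the same length, the shares with these letters were 20.6%, 40.8%, 51.8% and 7.92%. The E2F site letters TTTCCCGC, TTTCGCGC, TTTGCCGC and TTTGGCGC, searched on both strands, were present in 1 member promoter, that of PDHA1, and in 3.67% of all promoters. ALDOC and PDHB, which fell, and SLC16A1, which rose, thus hold the same letters, and these matches describe the sequence only.

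Glucose uptake was represented by 2 members, and both were lower in the E2F1 lines. SLC2A1 encodes GLUT1, the widespread basal glucose carrier. Its level in the pTRE replicates was 234, 248 and 359 CPM. It was 165, 159 and 205 CPM in WT, 151, 167 and 203 CPM in R109K and 137, 139 and 189 CPM in KK. No E2F1-line sample reached the lowest pTRE sample. SLC2A1 fell by 0.67 (SE 0.18) on the log2 scale in WT (adjusted p = 0.0088) and by 0.85 (SE 0.18) in KK (adjusted p = 0.0018), while the difference of -0.69 (SE 0.18) in R109K lay just outside the threshold (adjusted p = 0.0103). The call in WT rested on single libraries: without pTRE replicate 3, the highest of its group, the difference was -0.46 (adjusted p = 0.062), and it also lost the threshold without pTRE replicate 2 or WT replicate 1 or 2 (adjusted p of 0.012, 0.032 and 0.023). In KK it was lost without KK replicate 1 or pTRE replicate 3 (adjusted p of 0.012 and 0.014). The R109K difference passed in 5 of 13 other fits, among them DESeq2 and the fit without WT replicate 2 (adjusted p = 0.0050 in edgeR).

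SLC2A3 encodes GLUT3, the high-affinity carrier of neurons. It stood at 114, 93.0 and 123.5 CPM in pTRE and at 54.1, 49.7 and 67.1 CPM in WT. The R109K samples had 53.0, 50.9 and 70.7 CPM and the KK samples 44.7, 37.45 and 52.0 CPM, so the pTRE samples lay above all 9 others. SLC2A3 fell by 0.95 (SE 0.17) in WT, by 0.92 (SE 0.17) in R109K and by 1.30 (SE 0.17) in KK on the log2 scale, with adjusted p-values of 0.00036, 0.00066 and 2.4e-05. SLC2A14, a near-identical copy of SLC2A3 that may share its reads, stood at only 3.31 to 3.38 CPM in pTRE and at 0.19 to 1.59 CPM in the E2F1 lines. How reads were split between the 2 genes is uncertain.

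Among 18 other sugar, monocarboxylate and pyruvate carriers, 14 were tested. Of these, 4 fell and 1 rose in WT, 3 fell and 2 rose in KK, and 3 fell and 2 rose in R109K, beside 11.4%, 10.7% and 7.23% of all tested genes that fell and 14.8%, 13.8% and 10.0% that rose in WT, KK and R109K. Those past 2-fold with the largest changes were SLC2A12, SLC2A14 and SLC2A4, which fell in all 3 lines. SLC2A12, which encodes the carrier GLUT12, went from 25.3 to 40.4 CPM in pTRE to between 5.52 and 14.1 CPM in the E2F1 lines. SLC2A4, the insulin-responsive carrier GLUT4 of muscle and fat, went from 5.05 to 8.85 CPM in pTRE to between 2.35 and 3.89 CPM.

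The first steps after uptake moved less. Hexokinase phosphorylates glucose, HK1 being the housekeeping form and HK2 the inducible form of muscle and many tumours, and GPI then makes fructose phosphate. HK2 was at 143, 186 and 179.8 CPM in pTRE, 142, 143 and 160.5 CPM in WT, 117, 123 and 141 CPM in R109K and 111, 107 and 135 CPM in KK. The KK and R109K samples lay below every pTRE sample and the WT samples overlapped with them. HK2 fell in KK, by 0.53 (SE 0.13, adjusted p = 0.0056), while the log2 differences in R109K (-0.42, SE 0.13, adjusted p = 0.029) and WT (-0.19, SE 0.13, adjusted p = 0.27) did not pass. The KK call was lost without KK replicate 1, KK replicate 2, pTRE replicate 2 or pTRE replicate 3, with adjusted p-values of 0.023 to 0.034. HK1 and GPI had log2 differences between -0.32 and -0.21 in the 3 lines and passed in none.

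Phosphofructokinase commits sugar to glycolysis and is built from the liver (PFKL), muscle (PFKM) and platelet (PFKP) subunits. PFKM alone fell. It was at 111, 103.5 and 108.7 CPM in pTRE and at 57.6, 51.3 and 69.2 CPM in WT. It was at 64.4, 72.7 and 66.4 CPM in R109K and at 61.2, 62.1 and 59.8 CPM in KK, well below every pTRE sample. The log2 fold change of PFKM was -0.86 (SE 0.12, adjusted p = 3.5e-05) in WT, -0.82 (SE 0.12, adjusted p = 5.3e-05) in KK and -0.67 (SE 0.11, adjusted p = 0.00047) in R109K. PFKL differed by -0.17 to 0.19 and PFKP by 0.15 to 0.27 on the log2 scale and passed in no line. As a share of the 3 subunits per length, PFKM transcripts went from 26.3% ± 3.33 (SD, n = 3) in pTRE to 15.3% ± 1.31 in WT, 16.4% ± 0.70 in R109K and 16.3% ± 0.75 in KK.

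The 4 PFKFB enzymes set the concentration of the sugar bisphosphate that activates phosphofructokinase, and their kinase and phosphatase activities differ in balance, PFKFB3 being mostly a kinase. PFKFB3 was at 47.4, 58.0 and 46.0 CPM in pTRE and at 72.5, 68.9 and 67.8 CPM in WT, without overlap. It was at 62.0, 60.1 and 54.95 CPM in R109K and at 70.4, 55.3 and 59.9 CPM in KK, overlapping with pTRE. PFKFB3 rose in WT by a log2 fold change of 0.47 (SE 0.12, adjusted p = 0.0068), a call that was lost when pTRE replicate 1 or 3 or any 1 of the 3 WT samples was left out (adjusted p of 0.0103 to 0.036). In KK (0.29) and R109K (0.23) the log2 difference did not pass.

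PFKFB4, whose product is known as a HIF-induced enzyme of tumours, varied widely between replicates. It was at 36.3, 43.6 and 66.1 CPM in pTRE, 21.1, 31.6 and 37.4 CPM in WT, 27.0, 36.0 and 53.2 CPM in R109K and 21.3, 21.0 and 30.1 CPM in KK. Replicate 3 was the highest of each line. PFKFB4 fell in KK by 1.01 (SE 0.27, adjusted p = 0.0082), whereas the log2 differences of -0.70 (SE 0.27, adjusted p = 0.0496) in WT and -0.33 (SE 0.27, adjusted p = 0.39) in R109K did not pass. Without pTRE replicate 3 the KK difference was -0.73 with an adjusted p of 0.061, and without pTRE replicate 2, KK replicate 1 or KK replicate 2 the adjusted p was 0.015, 0.036 and 0.030. PFKFB1 was near the limit of detection, at 0.66 to 1.61 CPM, and PFKFB2 was at 24.8 to 49.9 CPM, and neither passed in any line.

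Aldolase splits the sugar bisphosphate into triose phosphates. ALDOC, the form of brain, was at 48.5, 42.1 and 66.6 CPM in the pTRE samples. It was at 10.4, 9.72 and 16.7 CPM in WT and at 9.50, 9.30 and 14.6 CPM in R109K. The KK samples had 7.47, 8.98 and 8.45 CPM, so that the pTRE samples lay far above all the others. The adjusted p-values were 5.2e-06 in WT, 4.7e-06 in R109K and 6.1e-07 in KK, and the fold decreases were 4.23, 4.72 and 6.32. ALDOA, the ubiquitous aldolase, was at 1059 to 1338 CPM in pTRE and 859 to 1452 CPM in the others, with log2 differences between -0.16 and 0.14. ALDOC made up 4.36% ± 0.53 of the aldolase transcripts per length in pTRE (SD, n = 3) and 1.18% ± 0.24 in WT, 0.89% ± 0.23 in R109K and 0.70% ± 0.08 in KK. Markers of neurons, in which ALDOC and SLC2A3 are also used, moved in part in the same direction: RBFOX3, SNAP25 and TUBB3 summed to 127 to 160 CPM in pTRE and 59.3 to 104 CPM in the E2F1 lines, none of them under 1 CPM. TUBB3 was lower (93.4 to 122.5 CPM in pTRE, 26.3 to 41.2 CPM in the others) while RBFOX3 was at 21.5 to 26.2 CPM in pTRE and 25.7 to 56.5 CPM in the others. Their part in the result was not tested.

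**Figure D2:**
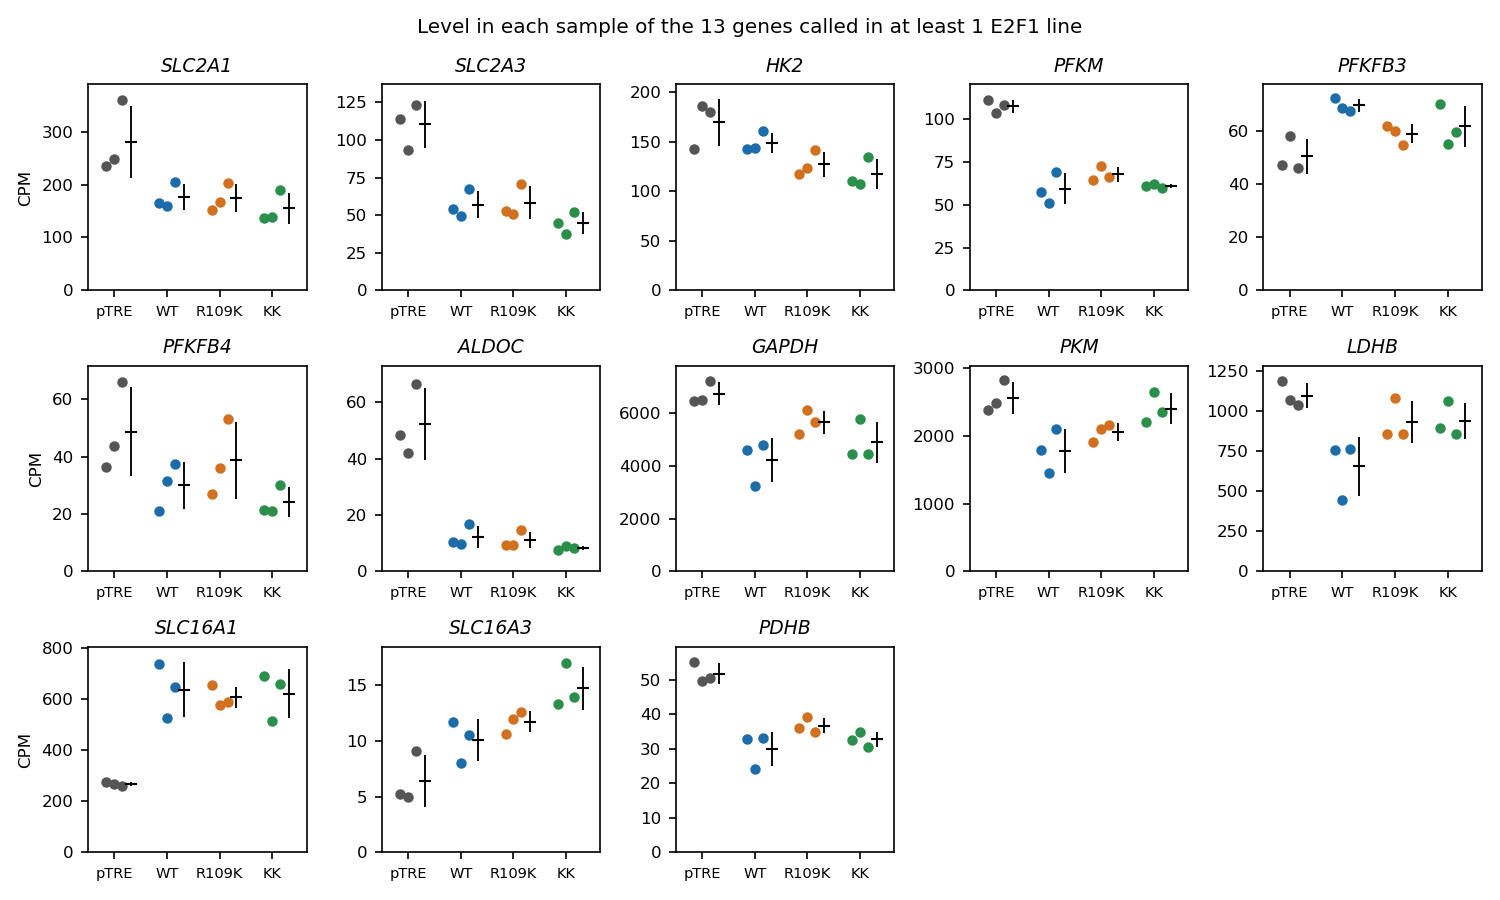
CPM (y axes, from 0) in each sample of the 13 genes that passed the test in at least 1 line, with 1 point per replicate (replicates 1 to 3 from left to right) and the mean and SD of the 3 beside them. The pTRE points of ALDOC, SLC2A3, PFKM and PDHB lie above all others, and those of SLC16A1 below all others.

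GAPDH oxidises the triose phosphate and is also one of the internal calibrators of the quantitative PCR in the study. It was at 6470, 6499 and 7243 CPM in pTRE and at 4601, 3256 and 4814 CPM in WT. It was at 5229, 6107 and 5663 CPM in R109K and at 4439, 5775 and 4464 CPM in KK. The 9 samples of the E2F1 lines all lay below the lowest pTRE sample. GAPDH fell in WT by 37.3% (log2 fold change -0.67, SE 0.15, adjusted p = 0.0027). Without WT replicate 2, its lowest sample, the log2 fold change was -0.52 (adjusted p = 0.0072), and without pTRE replicate 3 it was -0.62 with an adjusted p of 0.015. In KK the log2 difference was -0.46 (adjusted p = 0.027), which passed without KK replicate 2 (adjusted p = 0.0081) or WT replicate 2 (0.0056), and in R109K it was -0.25 (adjusted p = 0.25). ACTB, the other calibrator, differed by -0.07, 0.02 and 0.01 in WT, KK and R109K, and was not past the threshold. TPI1 passed in no line, with log2 differences of -0.40, -0.31 and -0.05.

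In the lower pathway, from PGK1 to pyruvate kinase, 1 of 6 members fell in WT and none in KK or R109K. PKM, which makes pyruvate, was at 2373, 2487 and 2823 CPM in pTRE, 1783, 1456 and 2096 CPM in WT, 1901, 2105 and 2153 CPM in R109K and 2205, 2648 and 2348 CPM in KK. The WT and R109K samples lay below all pTRE samples, while the KK samples overlapped with them. PKM fell in WT by 0.53 (SE 0.14, adjusted p = 0.0073). The call was not held when any 1 of the 3 pTRE samples or WT replicate 1 or 2 was left out (adjusted p of 0.012 to 0.039), and without WT replicate 2 the log2 difference was -0.40. The counts are per gene, so that the M1 and M2 splice forms of PKM are not separated.

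The other members of the lower pathway had log2 differences between -0.45 and 0.46. The 3 enolases differed in sign. ENO1, the ubiquitous form, lay at -0.23, 0.04 and 0.05 in WT, KK and R109K. ENO2, the neuronal form, lay at 0.46 (adjusted p = 0.012), 0.39 (adjusted p = 0.029) and 0.34 (adjusted p = 0.070), and passed in WT without pTRE replicate 3 or WT replicate 2 (adjusted p of 0.0038 and 0.0033) and in KK without pTRE replicate 3 (0.0074). ENO3, the muscle form, lay at 0.10, 0.08 and -0.45 (adjusted p = 0.029 in R109K). PGK1 lay at -0.44, -0.40 and -0.08, passing in WT without WT replicate 3 (adjusted p = 0.0049) and in KK without WT replicate 2 (0.0084). PGAM1 lay between -0.12 and 0.18.

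Lactate dehydrogenase is a tetramer of A and B subunits, of which A-rich forms are typical of tissues that make lactate. LDHB was at 1188, 1069 and 1038 CPM in pTRE and at 759.6, 445 and 766 CPM in WT, without overlap. It was at 860.1, 1085 and 858 CPM in R109K and at 894, 1066 and 859 CPM in KK, overlapping with pTRE. LDHB fell in WT by 0.74 (SE 0.18, adjusted p = 0.0046). Without WT replicate 2, its lowest sample, it still passed at -0.53 (adjusted p = 0.0069), but without any 1 of the 3 pTRE samples it did not (-0.78 to -0.69, adjusted p of 0.012 to 0.022). LDHA stood at 1572 to 1742 CPM in pTRE, 838 to 1431 in WT, 1127 to 1234 in KK and 1368 to 1652 in R109K. Its log2 differences of -0.51 in WT (adjusted p = 0.021) and -0.52 in KK (adjusted p = 0.019) did not pass. They passed in WT without WT replicate 3 (adjusted p = 0.0057) and in KK without WT replicate 2 (0.00095). The R109K difference was -0.13.

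Apart from PFKFB3 in WT, the members that rose were monocarboxylate carriers. SLC16A1 encodes MCT1, which carries lactate, pyruvate and ketone bodies in either direction. It was at 273, 267 and 258.5 CPM in pTRE and at 736, 524.5 and 646 CPM in WT. It was at 653, 575.5 and 588 CPM in R109K and at 689, 512 and 658 CPM in KK, so the 9 samples of the E2F1 lines lay well above pTRE. The log2 fold changes of SLC16A1 were 1.26 (SE 0.14) in WT, 1.19 (SE 0.14) in R109K and 1.22 (SE 0.14) in KK, with adjusted p-values of 7.9e-06, 2.4e-05 and 1.1e-05. The antisense gene SLC16A1-AS1 rose too, from 7.09 to 9.29 CPM in pTRE to between 13.7 and 42.7 CPM. Its exons do not overlap with those of the MANE Select transcript of SLC16A1, and its part in the result was not tested. BSG, the membrane chaperone of the carrier, had log2 differences between -0.17 and 0.04 and did not pass.

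SLC16A3 encodes MCT4, the lactate exporter of glycolytic muscle and hypoxic cells. It was low, at 5.21, 4.94 and 9.07 CPM in pTRE, 11.7, 8.03 and 10.6 CPM in WT, 10.7, 11.99 and 12.6 CPM in R109K and 13.4, 16.95 and 13.9 CPM in KK. The KK and R109K samples lay above all pTRE samples, and WT replicate 2 lay below pTRE replicate 3. The log2 fold change of SLC16A3, which rose in KK and R109K, was 1.20 (SE 0.21, adjusted p = 0.00041) and 0.87 (SE 0.21, adjusted p = 0.0061). In R109K the call was lost without pTRE replicate 1 or 2 or any 1 of the 3 R109K samples (adjusted p of 0.013 to 0.039). In WT the log2 difference was 0.67 (adjusted p = 0.022), and it passed without WT replicate 2 (0.79, adjusted p = 0.0084) or without pTRE replicate 3 (1.00, adjusted p = 0.0012). Over 482 bases, 18.5% of its transcript, SLC16A3 overlaps with CSNK1D on the opposite strand, and whether reads were counted by strand is not stated. CSNK1D was at 219 to 271 CPM in pTRE and 175.5 to 200 CPM in the E2F1 lines, and its part in the SLC16A3 result was not tested.

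Pyruvate dehydrogenase kinases phosphorylate and switch off the pyruvate dehydrogenase complex, and PDP1 and PDP2 reverse this. None of the 4 kinases and neither phosphatase passed in any line. PDK4, the kinase of fasting, stood at 0.48 to 1.12 CPM in pTRE and 1.37 to 2.18 CPM in the others, with log2 differences of 1.00 (SE 0.34, adjusted p = 0.026), 1.11 (SE 0.33, adjusted p = 0.016) and 1.10 (SE 0.33, adjusted p = 0.021) in WT, KK and R109K. Without WT replicate 2 it passed in KK (adjusted p = 0.0075) and R109K (0.0097). PDK3 had log2 differences of 0.51 (adjusted p = 0.018), 0.34 and 0.37. PDK1, a HIF target, lay at 0.11, -0.37 and -0.20. In WT its value turned to -0.12 without WT replicate 2, whose level of 51.5 CPM was the highest of all samples (23.1 to 38.2 CPM in the others). PDK2 lay between -0.08 and 0.21, and 62.8% of its transcript overlaps with SAMD14 on the opposite strand, which stood at 5.17 to 7.63 CPM. PDP1 and PDP2 lay between -0.05 and 0.29.

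PDHA1 and PDHB encode the subunits of the E1 enzyme that decarboxylates pyruvate. PDHB was at 55.2, 49.5 and 50.4 CPM in pTRE, 32.7, 24.3 and 33.0 CPM in WT, 36.0, 39.1 and 34.9 CPM in R109K and 32.7, 34.9 and 30.6 CPM in KK. The pTRE samples lay above all others. PDHB fell by 0.78 (SE 0.13, adjusted p = 0.00018) in WT, by 0.66 (SE 0.12, adjusted p = 0.00068) in KK and by 0.49 (SE 0.12, adjusted p = 0.0073) in R109K on the log2 scale. The R109K call was lost when any 1 of the 3 pTRE or 3 R109K samples was left out, with adjusted p-values of 0.015 to 0.037. PDHA1, its partner subunit, lay at -0.26, -0.01 and 0.05 and did not pass. Of its transcript, 28.5% overlaps with MAP3K15 on the opposite strand, which was below 1 CPM. Of the other subunits of the complex, 4 were tested and none passed in any line, with log2 differences between -0.21 and 0.41.

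**Figure D3:**
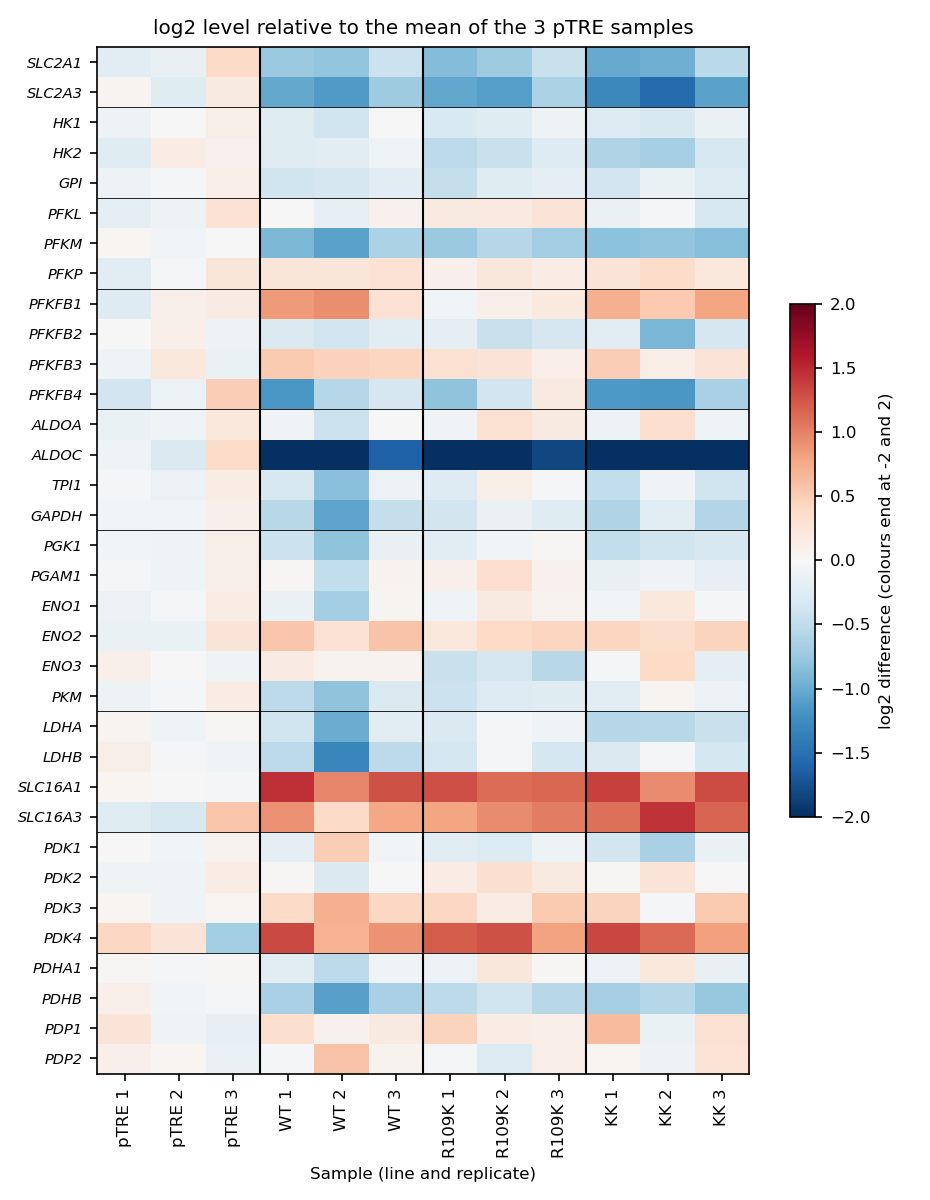
Log2 level in each of the 12 samples (x axis) relative to the mean of the 3 pTRE samples for the 34 genes (y axis), blue for lower and red for higher, with colours ending at -2 and 2. ALDOC and SLC2A3 are blue and SLC16A1 is red in all 9 samples of the E2F1 lines, and WT replicate 2 is bluer than its partners for most genes from TPI1 to LDHB.

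The balance of isoenzymes within a sample was compared as the log2 ratio of their CPM. ALDOC to ALDOA went from -4.49 ± 0.19 (SD, n = 3) in pTRE to -6.44 ± 0.30 in WT, -6.87 ± 0.39 in R109K and -7.17 ± 0.16 in KK. ENO2 to ENO1 went from -3.70 ± 0.10 to -2.98 ± 0.23, -3.40 ± 0.06 and -3.33 ± 0.20, and the 9 samples of the E2F1 lines lay above pTRE. PFKP to PFKL was higher in WT (-0.18 ± 0.11) and KK (-0.03 ± 0.08) than in pTRE (-0.47 ± 0.07) and R109K (-0.52 ± 0.07), which overlapped. LDHA to LDHB was 0.61 ± 0.09 in pTRE, 0.85 ± 0.10 in WT, 0.72 ± 0.14 in R109K and 0.32 ± 0.21 in KK. All 3 WT samples lay above the pTRE samples and all 3 KK samples below them. PFKFB3 to PFKFB4 was 0.09 ± 0.53 in pTRE, 1.26 ± 0.48 in WT, 0.66 ± 0.58 in R109K and 1.37 ± 0.37 in KK. These ratios were not tested.

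**Figure D4:**
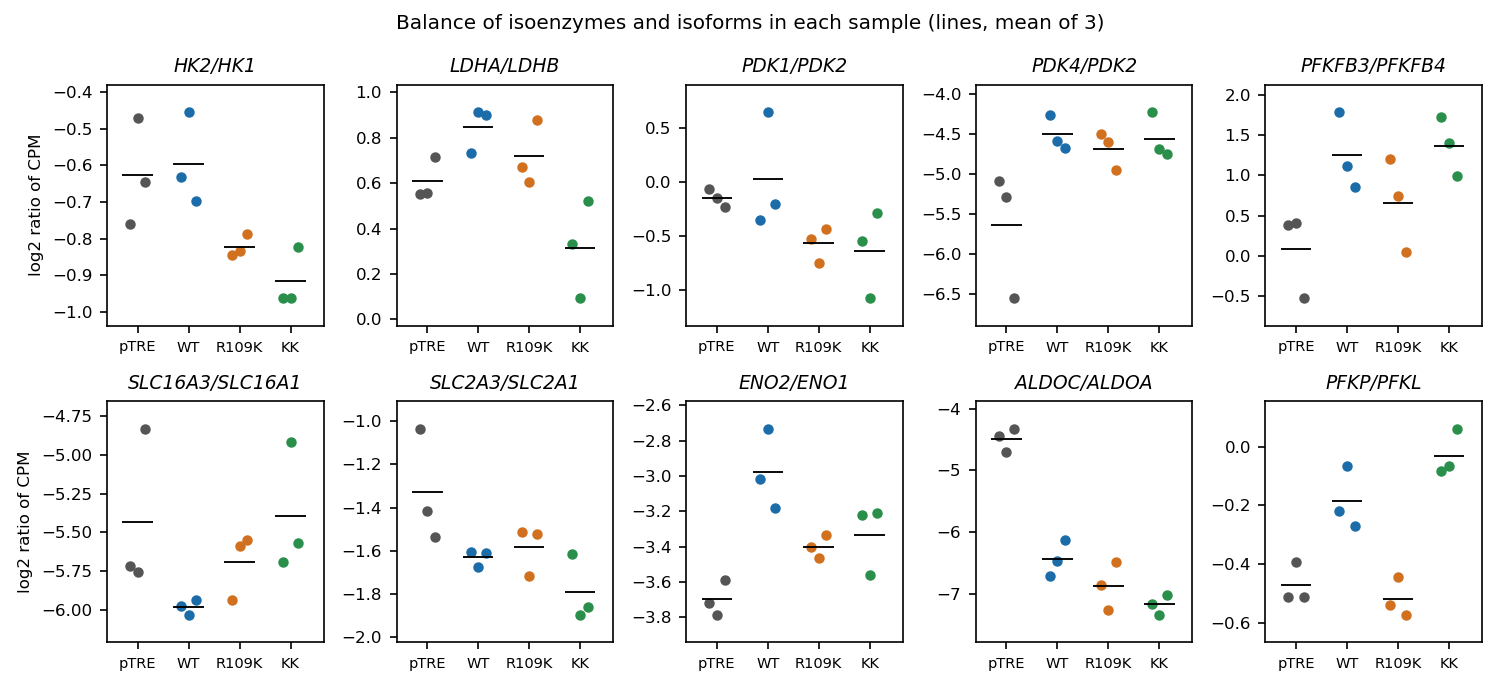
Log2 ratio of the CPM of 2 isoenzymes (y axes) in each sample, with 1 point per replicate and a line at the mean of the 3, for 10 pairs. The pTRE points of ALDOC/ALDOA lie near -4.5 and all others below -6, and the KK points of LDHA/LDHB lie below those of the other lines.

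The lines were also compared with each other, to ask whether the mutated arginine sites altered the response. No member passed the test in any of the 3 direct comparisons, by edgeR or by DESeq2. Of all tested genes, 0.710% passed between R109K and WT (118 genes), 0.0120% between KK and WT (2 genes) and 0.132% between R109K and KK (22 genes). At an unadjusted p below 0.05 in edgeR, 9 of the 34 members passed between R109K and WT, 6 between KK and WT and 8 between R109K and KK. Of all genes, 22.3%, 8.51% and 12.4% did so. By DESeq2, 9, 7 and 7 members passed, beside 3836, 1507 and 2080 of the 16625 genes. The samples of the 2 lines did not overlap for 11 members between R109K and WT (27.1% of all genes), 5 between KK and WT (9.97%) and 11 between R109K and KK (21.0%). The 95% interval of the log2 difference lay within 1 on either side of 0 for 33, 33 and 32 of the 34 members. E2F1 itself was 0.65 lower on the log2 scale in R109K than in WT (SE 0.18, adjusted p = 0.058), and 0.46 lower in KK (SE 0.18, adjusted p = 0.57). The part of the E2F1 level in these comparisons was not tested.

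The genes called against pTRE differed in how close the lines were. For SLC16A1 the log2 difference was -0.07 (95% interval -0.37 to 0.23) between R109K and WT and -0.04 (-0.34 to 0.27) between KK and WT. For ALDOC it was -0.16 (-0.65 to 0.33) and -0.58 (-1.08 to -0.08), and the KK samples lay below those of WT (adjusted p = 0.57). For SLC2A3 it was 0.03 (-0.32 to 0.38) and -0.35 (-0.70 to 0.00). PKM was higher in KK than in WT by 0.43 (0.14 to 0.73), LDHB by 0.52 (0.13 to 0.90) and SLC16A3 by 0.53 (0.09 to 0.97), each without overlap of the samples and each with an adjusted p of 0.57. The smallest adjusted p belonged to ENO3, whose R109K samples of 15.6, 16.9 and 14.6 CPM lay below those of WT (22.5 to 24.0) and KK (18.7 to 28.4). The log2 difference of ENO3 was -0.55 (-0.86 to -0.24, adjusted p = 0.0503) to WT and -0.53 (-0.84 to -0.22, adjusted p = 0.094) to KK.

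Other genes of the same pathways were counted by list. The counts stand beside the shares of all tested genes that fell (11.4% in WT, 10.7% in KK and 7.23% in R109K) or rose (14.8%, 13.8% and 10.0%). Of 20 HIF targets outside glycolysis that were tested, 8 fell and 1 rose in WT, 8 fell in KK and 4 fell in R109K, with median log2 fold changes of -0.44, -0.42 and -0.22. CA12, a cell-surface carbonic anhydrase, fell from 83.2 to 89.8 CPM in pTRE to between 21.6 and 35.9 CPM in the E2F1 lines. P4HA1, a collagen prolyl hydroxylase subunit, fell from 151 to 194 CPM to between 57.8 and 107 CPM. DDIT4, a stress-induced inhibitor of mTORC1, fell in WT by 1.88 (SE 0.36, adjusted p = 0.00069) and in KK by 1.62 (SE 0.35, adjusted p = 0.0021), and in R109K the difference was -0.91 (adjusted p = 0.062). Of 8 tested genes of the HIF system itself, 1 fell in each line, 1 rose in WT and 2 rose in KK. The prolyl hydroxylase EGLN3 fell in all lines (6.61 to 8.27 CPM in pTRE, 2.49 to 3.60 CPM in the others) and EPAS1, which encodes HIF-2α, rose in WT (log2 fold change 1.12) and KK (0.97).

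The counts of the next lists stand beside the same background, in which 11.4%, 10.7% and 7.23% of all tested genes fell and 14.8%, 13.8% and 10.0% rose in WT, KK and R109K. In the pentose phosphate pathway, which branches off after hexokinase, 4 of 8 genes fell in WT, 2 in KK and 1 in R109K. Of 5 tested gluconeogenesis genes, 2 fell in WT, 2 in KK and 1 in R109K. PCK2, the mitochondrial enzyme that makes phosphoenolpyruvate, fell in all lines from 83.5 to 102 CPM to between 35.6 and 47.6 CPM. FBP2, the muscle fructose bisphosphatase, fell in KK by 1.00 (SE 0.24, adjusted p = 0.0040) at 1.21 to 1.78 CPM. Of 16 other tested genes of glycolysis, 2 fell in WT, 2 fell and 1 rose in KK, and 1 fell in R109K, with medians between -0.10 and -0.08. Of 17 tricarboxylic acid cycle genes, 1 fell in WT, and 1 rose in KK and in R109K. Among 16 tested regulators of glycolytic genes, 5 rose and 1 fell in WT, 4 rose and 1 fell in KK, and 3 rose and 1 fell in R109K. Of these, FOXO1 rose in all lines (6.87 to 8.93 CPM in pTRE, 15.2 to 42.6 CPM in the others), as did TXNIP, which restrains glucose uptake (2.58 to 3.27 and 4.65 to 8.37 CPM).

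Because WT replicate 2 stood apart, the members were also fitted without it. Then 6 members fell and 3 rose in WT, against 8 and 2 with it. The median log2 fold change of the members was -0.12 instead of -0.20. Of all genes, 1700 fell and 2366 rose in WT without it (16823 tested), against 1898 and 2464 with it (16625 tested). Of the 10 genes called with all samples, SLC2A1 (adjusted p = 0.023), PKM (0.023) and PFKFB3 (0.0103) lost the threshold, and ENO2 and SLC16A3 gained it. The log2 fold change was closer to 0 without this library for 24 of the 34 members. With WT replicate 2 left out of the shared fit, 10 members fell and 3 rose in KK, and 5 fell and 3 rose in R109K. The calls over all genes grew as well. In KK 2249 genes fell and 2676 rose, against 1772 and 2287 with this library. In R109K 1620 fell and 1972 rose, against 1202 and 1666.

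**Figure D5:**
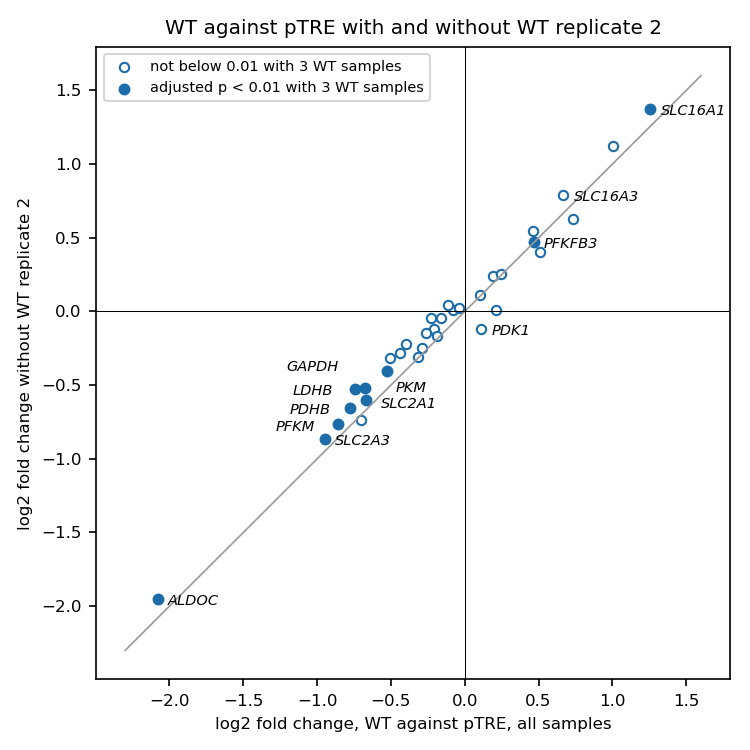
Log2 fold change of WT against pTRE with all 3 WT samples (x axis) and without WT replicate 2 (y axis) for the 34 genes, with filled points for an adjusted p below 0.01 with all samples and a grey line where both are equal. LDHB, GAPDH and PKM lie above the line, closer to 0 on the y axis, and PDK1 changes sign.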

How the data were processed

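The authors deposited 1 table per sample of whole-number counts of reads per gene symbol, made from poly(A) libraries (directional kit) with Trim Galore 0.4.3 and STAR 2.5.1 on hg19 (submitters' processing notes and the study's methods). The annotation and the strand setting are not given in the sources used here. The deposited counts were not normalized. The 5 summary lines of each table were kept out of library sizes. Depth was 11500537 to 31040903 reads on genes per sample.

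Counts were filtered (filterByExpr), scaled by TMM and fitted in 1 model of all 12 samples with edgeR 4.0.16 (glmQLFit, glmQLFTest) in R 4.3.3, with Benjamini-Hochberg adjustment over 16625 genes and a threshold of 0.01, the threshold of the study's methods (which used DESeq2 1.16.1). Percentages of change are from the fitted fold changes. The pipeline was tested on simulated data. Alternatives were DESeq2 1.42.0, RLE scaling, 2 other filters, the 2-fold rule, a threshold of 0.05, only the 6 samples compared, a replicate block and each replicate left out. Same-numbered samples of R109K and KK deviated together (r of 0.294 to 0.47), and those of the other line pairs did not do so throughout. Leaving WT replicate 2 out of the fits for KK and R109K was chosen after seeing the data. No 2 samples of a line agreed within sampling noise. P-values measure the spread between the replicates of 1 line each.

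Per-sample values were printed for members with an adjusted p below 0.01 in any comparison, other members are given by differences or ranges, and ENO3 and PDK1 values were added after being seen. Of each other list, at most 3 genes past the threshold and 2-fold were named. BSG, ACTB, CSNK1D, SAMD14, MAP3K15 and SLC16A1-AS1 were chosen after their values were seen. The members and lists were chosen with earlier results of these data known. TIGAR and ERO1A are not under these symbols in the tables. Promoters and transcript lengths came from the GRCh37 genome and GENCODE MANE Select transcripts. Some other items are not reported here.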

Additional observations from a re-analysis of the deposited data

Results flagged for a closer look

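A pair of samples showed a signal in the summary lines of the count tables, which enter none of the comparisons, above the level of the control samples. In WT replicate 2, 58.7% of the reads lay outside annotated genes, and in KK replicate 3 29.6%, against at most 28.3% in the pTRE samples. WT replicate 2 was also the shallowest library. It had the lowest level of all 12 samples for HK1, PFKM, ALDOA, TPI1, GAPDH, PGK1, PGAM1, ENO1, PKM, LDHA, LDHB, PDK2, PDHA1 and PDHB. WT replicate 2 had the highest level for PFKFB1, PDK1, PDK3 and PDP2. KK replicate 3 lay within the range of the other samples in the members' share of gene reads (1.80%).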

How the results depend on the processing

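Of the 25 calls against pTRE, 15 kept an adjusted p below 0.01 under every other model, filter, scaling, block and left-out sample, among them those of ALDOC, SLC16A1, SLC2A3 and PFKM in all 3 lines. No difference reversed past the threshold, and the direct comparisons gave 0 members under every alternative. In WT the members that rose (2) became 1 with the 2-fold rule, 6 at a threshold of 0.05 and 4 with DESeq2. They became 1 without a filter and 1 with only the 6 samples compared. Of all genes, the 2464 that rose in WT became 1311, 3559, 2951, 2494 and 2028 in these settings, in that order. The genes tested numbered 16625, or 22831 without a filter and 16184 with the 6 samples. The members that fell in WT (8) became 1 with the 2-fold rule and 5 with the 6 samples. Of all genes, the 1898 that fell in WT became 653 and 1323. In KK those that rose (2) became 4 at 0.05 and 4 with DESeq2, and those that fell (7) became 3 with the 2-fold rule and 11 at 0.05. Of all genes, the 2287 that rose in KK became 3218 and 2672, and the 1772 that fell became 649 and 2879. In R109K those that rose (2) became 1 with the 2-fold rule. Those that fell (4) became 1 with the 2-fold rule, 7 at 0.05 and 7 with the 6 samples. Of all genes, the 1666 that rose in R109K became 771. The 1202 that fell became 425, 2140 and 1924, the last of 16016 tested. The cause of these shifts was not tested beyond the stricter or looser rule itself.

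With 1 replicate left out, 1 to 3 members rose and 4 to 10 fell in WT. In KK 2 to 3 rose and 4 to 10 fell, and in R109K 1 to 3 rose and 3 to 5 fell. Of all genes (16823 to 16993 tested), 1867 to 2452 rose and 1256 to 1830 fell in WT in these fits. For KK 1734 to 2676 rose and 1253 to 2249 fell, and for R109K 1126 to 1972 rose and 701 to 1620 fell. The members that fell in WT were 4 without pTRE replicate 3 and 5 without pTRE replicate 2. Those that fell in KK were 4 without pTRE replicate 3 or KK replicate 1. Those that rose numbered 1 in WT without pTRE replicate 1 or WT replicate 1 or 3, and 1 in R109K without pTRE replicate 1 or 2 or any 1 of the 3 R109K samples.

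The replicate numbers of the titles did not pair the samples over all lines: the deviations of same-numbered samples correlated with a mean r of 0.0435 (-0.295 to 0.47 over 18 pairs, 5 of them over 0.1), and 7 of 12 samples correlated best with their own number. The 3 same-numbered pairs of R109K and KK alone all correlated (r of 0.411, 0.47 and 0.294), and with the block 0 members passed between these lines, as without it. With the number as a replicate block, 3 members rose and 8 fell in WT, 3 and 7 in KK, and 3 and 4 in R109K. Of the 16625 genes, 2405 rose and 1882 fell in WT with the block, 2261 and 1803 in KK, and 1642 and 1238 in R109K. The block lost the calls of LDHB in WT (adjusted p = 0.012) and PDHB in R109K (0.012) and gave calls to PFKFB4 (0.0011) and ENO2 (0.0092) in WT, PDK4 in KK (0.0074) and R109K (0.0097) and SLC2A1 in R109K (0.00044). Depth limits PDK4 and PFKFB1, both near 1 CPM.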
